A study of Mus musculus with 8 samples.

Results

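The genes described here are those that the authors listed for day 0, before any colitis was induced, as differing in intestinal epithelial cells (IECs) of the mouse colon when Efhd2 was deleted in the epithelium. There are 309 of them, of the 428 genes that appear in at least one of the study's 2 tables, and every gene of the day 0 table is a member. Of these genes 99 were higher and 210 lower in the Efhd2-deficient IECs. Leaving aside genes whose mean was under 100 normalized counts, the largest increases were those of the heat-shock genes Hspa1a, Hspa1b and Hsph1, and the lower genes included markers of enteroendocrine cells, peptidases of the brush border, and genes of intraepithelial lymphocytes.

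The mice carried loxP sites around exon 2 of Efhd2 on both alleles. In mice of genotype Efhd2 f/f Vil1 cre/+, called Efhd2-deficient in the labels and below, the villin promoter drives Cre recombinase in the intestinal epithelium. Efhd2 f/f mice without Cre, called wildtype in the labels, were the controls. The study's methods give mice of both sexes at 8 to 10 weeks of age on standard chow, and day 0 libraries are labelled as taken without dextran sulfate sodium (DSS). IECs were released from the colon with dithiothreitol and EDTA and passed through a strainer, and no sort is described, so leukocytes that lie within the epithelium can be in the preparation. Each genotype has 2 libraries on day 0, numbered 51 and 53 (Efhd2-deficient) and 50 and 52 (control), and no label says whether they came from separate mice, so p-values measure only the spread between these libraries. Values below are normalized counts per gene as the authors scaled them, given for libraries 51 and 53 first and for libraries 50 and 52 second.

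The table holds genes that passed the authors' thresholds on these same 4 libraries, a log2 fold change beyond 1 in size with an adjusted p-value under 0.05. Every listed gene therefore had to differ, its direction was fixed by that choice, and the levels, fold changes and calls given here describe the listed genes and are no independent support for a difference. Differences were recomputed on log2(normalized count + 1) with limma, and a gene was called at a Benjamini-Hochberg adjusted p under 0.05 over all 309 genes together with a log2 fold change beyond 1 in size. By this rule 94 of 309 listed genes were called higher (30.4%) and 193 lower (62.5%), and 22 were not called. By direction, 94 of the 99 higher genes and 193 of the 210 lower ones were called. A group below that was called in full is therefore close to the listed genes as a whole. Both libraries of one genotype lay above both of the other for 99 genes higher in Efhd2-deficient IECs (32%) and for 207 lower ones (67%). With 2 libraries against 2, the smallest two-sided p of an exact permutation test on any 1 gene is 0.333. When library 51, 53 or 50 was left out, limma called 0 genes in either direction, although 36 to 61 genes higher and 75 to 107 lower still passed an unadjusted p under 0.05 with a log2 fold change of that size.

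The colonic epithelium is a single layer of absorptive colonocytes, mucus-secreting goblet cells and scattered hormone-secreting enteroendocrine cells, renewed from stem cells in the crypts and patrolled by intraepithelial lymphocytes. EFHD2 (swiprosin-1) is a calcium-binding EF-hand protein that associates with actin and has been studied mostly in leukocytes and neurons. Heat-shock proteins are chaperones that keep other proteins folded, and their genes are switched on together by the transcription factor HSF1, which binds repeats of a short element in their promoters. Bulk RNA mixes all cells in the preparation, so fewer cells of a type and less RNA per cell cannot be told apart.

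The targeted gene, Efhd2 (ENSMUSG00000040659), lies on the minus strand at chr4:141858142-141874920 of GRCm38. It stood at 556 and 713 normalized counts in Efhd2-deficient IECs and at 2663 and 2686 in control IECs. The control libraries were close together and the Efhd2-deficient ones far below them, with a mean 4.22-fold lower and a log2 difference of -2.09 (limma: standard error 0.39, adjusted p = 0.00554). The counts are for the whole gene, so reads from exons outside the deleted one are included. Exon 2, the exon between the loxP sites, is shown because it is the sequence that Cre removes. It spans chr4:141861805-141861952, is wholly coding, and its 148 bases, read on the strand of the gene, are not a multiple of 3.
Efhd2 exon 2: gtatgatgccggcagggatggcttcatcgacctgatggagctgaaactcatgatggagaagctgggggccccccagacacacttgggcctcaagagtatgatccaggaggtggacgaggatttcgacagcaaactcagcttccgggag
No listed gene neighboured Efhd2. The nearest ones on chromosome 4 were Man1c1, 7.15 Mb away on one side, and Slc2a5, 8.24 Mb away on the other.

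Most listed differences were modest. The median log2 fold change was 1.45 among the higher genes and -1.50 among the lower ones, and it was beyond 2 in size for 22 higher and 54 lower genes. The lower genes rested on fewer normalized counts (not scaled by gene length), with a median of 76.1 for the mean over the 4 libraries against 211 for the higher genes, and 121 of the 210 had a mean under 100. Of the 309 genes 245 were annotated as protein-coding, 81 of them higher and 164 lower. The plot of genotype means shows these groups on both sides of the diagonal.

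**Figure D1:**
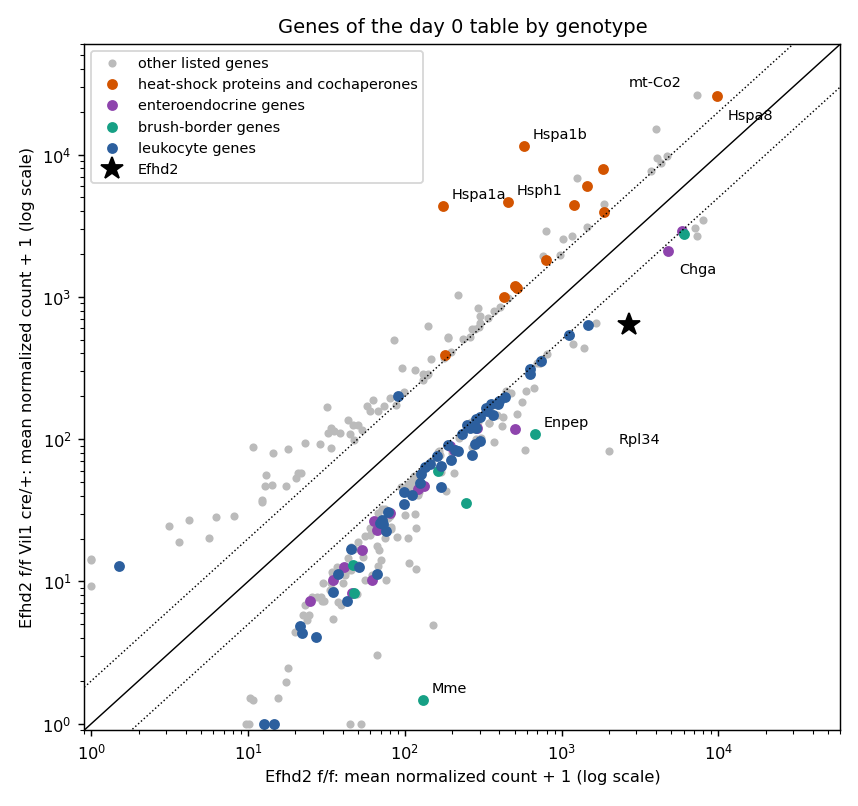
Mean normalized count plus 1 of each listed gene in control IECs (x axis, Efhd2 f/f) and Efhd2-deficient IECs (y axis, Efhd2 f/f Vil1 cre/+) on day 0, both on log scales, with 1 point for each of the 309 genes. The solid line marks equal levels and the dotted lines a 2-fold difference. All 13 heat-shock and cochaperone genes lie above the solid line, while the enteroendocrine and brush-border genes and 52 of 54 leukocyte genes lie below it.

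The control libraries differed from each other in a graded way. In 169 of the 210 lower genes, library 52 lay between library 50 and both Efhd2-deficient libraries, and the same was true of 70 of the 99 higher genes. Without library 50 the median log2 fold change of the lower genes was -1.24, and without library 52 it was -1.75. Efhd2 itself differed little between the 2 control libraries. Summed over the listed genes, the Efhd2-deficient libraries held 257002 and 205066 normalized counts and the control libraries 150452 and 149389. Scaling the libraries to equal sums lowered the median log2 fold change by 0.61 and gave 30 genes called higher and 207 lower, with no gene changing sign. The higher genes alone held 227060 and 167920 normalized counts against 55837 and 73769. Equal sums therefore remove part of their rise by construction. The loss of higher calls and the gain of lower ones, here and in the groups below, are no check of either direction.

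**Figure D2:**
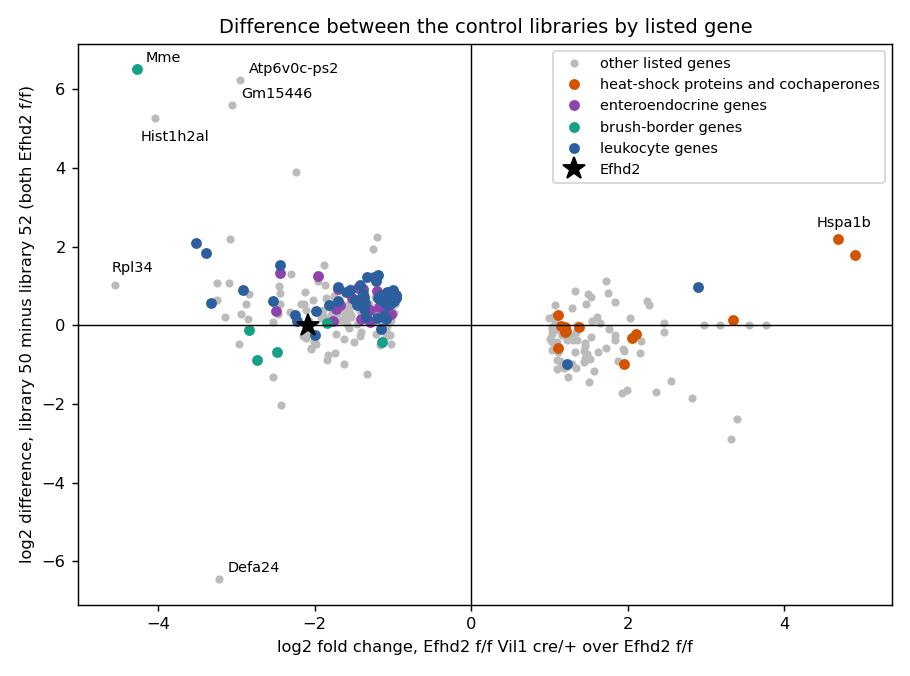
For each listed gene, the log2 fold change between genotypes (x axis, Efhd2-deficient over control) and the log2 difference between control library 50 and control library 52 (y axis), both on log2(normalized count + 1). In 171 of the 210 lower genes library 50 was above library 52, and among the leukocyte genes this held for 51 of 54. Mme, Atp6v0c-ps2, Gm15446 and Hist1h2al stand far above 0 on the y axis because library 50 held nearly all of their counts, and Defa24 far below it.

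The listed heat-shock genes were all higher. Of a list of 41 heat-shock proteins and cochaperones 13 were in the table. Limma called all 13 higher, beside 94 of the 99 higher genes of the table. Their log2 fold changes ran from 1.11 to 4.91 with a median of 1.38, beside the median of 1.45 over all higher genes. Hspa1a and Hspa1b encode the inducible HSP70 chaperones. Hspa1a (chr17:34969190-34972156) stood at 4710 and 4018 normalized counts in Efhd2-deficient IECs and at 269 and 76.7 in control IECs, a 25.3-fold higher mean and a log2 fold change of 4.91 with standard error 0.59 (limma adjusted p = 0.00199). Its neighbour Hspa1b (chr17:34956436-34959238) stood at 13325 and 9581 against 936 and 205, with a log2 fold change of 4.68 with standard error 0.67 (limma adjusted p = 0.00266). The 2 coding sequences differ at 10 bases and are 99.5% identical, so reads could have been split between them in the authors' counting. On the log2 scale, the control libraries differed more from each other for both genes than the Efhd2-deficient libraries did. Hsph1, an HSP110 nucleotide exchange factor for HSP70, was more even. It stood at 5148 and 4081 against 474 and 430, a 10.2-fold higher mean and a log2 fold change of 3.34 with standard error 0.39 (limma adjusted p = 0.00199).

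HSP90 and the cytosolic partners of HSP70 were called higher as well. Hsp90aa1, the stress-inducible HSP90, stood at 8998 and 6830 normalized counts against 1688 and 1965 (log2 fold change 2.11, adjusted p = 0.00559, limma). Dnaja1, a J-domain cochaperone that delivers clients to HSP70, stood at 6531 and 5522 against 1296 and 1610 (log2 fold change 2.06). Dnajb1, the J-domain protein induced with HSP70, stood at 4415 and 4372 against 802 and 1601 (log2 fold change 1.95). For these 3 genes each Efhd2-deficient library was far above either control library, and Dnajb1 differed most between the controls. Hspa8, the constitutive HSC70, stood at 27983 and 23360 against 9670 and 9947, a log2 fold change of 1.38 (adjusted p = 0.0168, limma). The nucleotide exchange factor Bag3 stood at 1075 and 914 against 408 and 449, a log2 fold change of 1.21. Stip1, which links HSP70 to HSP90, Hspa4l, the HSP90 cochaperones Chordc1 and Fkbp4, and Dnajb4 completed the list with log2 fold changes from 1.11 to 1.2. With equal sums over the listed genes the median of the 13 fell by 0.61 to 0.77, and 6 of them were called, namely Hspa1a, Hspa1b, Hsph1, Hsp90aa1, Dnaja1 and Dnajb1. In all 13 genes library 51 was above library 53.

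**Figure D3:**
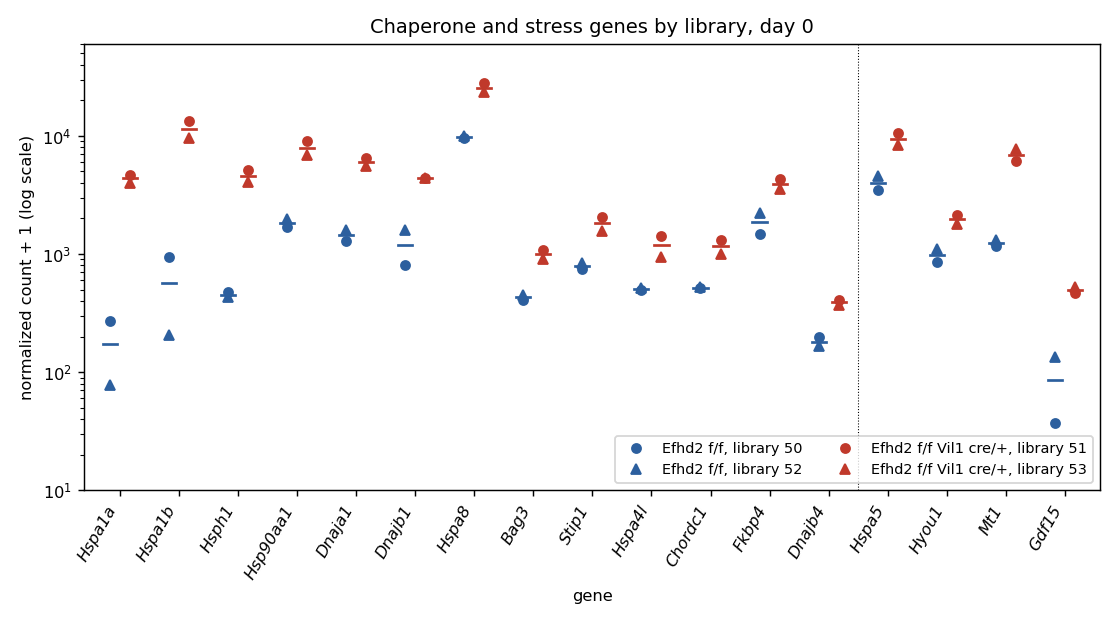
Normalized count plus 1 (y axis, log scale) of chaperone and stress genes in each of the 4 day 0 libraries, with 1 symbol for each library and a short line for the mean of each genotype. Heat-shock and cochaperone genes are left of the dotted line, ordered by log2 fold change from 4.91 for Hspa1a to 1.11 for Dnajb4, and 2 endoplasmic reticulum chaperones, Mt1 and Gdf15 are right of it. For every gene shown both Efhd2-deficient libraries lie above both control libraries.

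The promoters of these genes were searched for heat-shock elements because their members moved together. RefSeq promoter sequences on GRCm38.p6, from 250 bases before to 50 bases after the start, were found for 11 of the 13 genes (none for Hsp90aa1 and Hspa8). A pair of facing or back-to-back units, GAANNTTC or TTCNNGAA, which read the same on both strands, occurred in 8 of 11 (72.7%), against 17% of 27025 genes with a promoter in the table and 17.7% of 186 other listed genes. A run of 3 units (GAANNTTC, then any 2 bases, then GAA, on either strand), which contains both pairs, occurred in 2 of 11 (18.2%, Hsph1 and Chordc1), against 0.662% of all genes and 0.538% of the other listed genes. The run lay after the start in Hsph1 (bases 37 to 49, or 16 to 28 from a further start) and across it in Chordc1 (from base -4). A match is a description of the sequence and not of binding. The genes were drawn from a list of known heat-shock genes, so a higher share than among other genes could follow from the list alone. The share among heat-shock genes outside the table was not computed, and whether the elements go with the rise was not tested. Stretches upstream of the start are shown for the genes with the highest fold changes that held a pair and for 2 with smaller ones, with the pair in capitals. The Hsph1 stretch shows a separate upstream pair and not its run of 3 units.
Hspa1a, chr17:34972243-34972270, minus strand: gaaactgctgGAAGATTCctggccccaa
Hspa1b, chr17:34959325-34959352, minus strand: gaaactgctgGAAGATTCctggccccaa
Hsph1, chr5:149636352-149636379, minus strand: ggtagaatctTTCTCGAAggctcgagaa
Dnaja1, chr4:40722334-40722361, plus strand: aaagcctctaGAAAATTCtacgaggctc
Fkbp4, chr6:128438790-128438817, minus strand: cgcttctctaGAAAGTTCtccgctcccg
Dnajb4, chr3:152193846-152193869, minus strand: tcgttcgctgTTCTAGAAagtaca
Hspa1a and Hspa1b carried the same 28 bases at the same distance, 114 to 87 bases before their starts. Their log2 fold changes of 4.91 and 4.68 were well above those of Fkbp4 and Dnajb4, 1.11 each, which also held a pair.

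Other stress genes were higher too. Of 15 endoplasmic reticulum chaperones 2 were listed. Hspa5, which encodes BiP, stood at 10527 and 8304 normalized counts against 3500 and 4553 (log2 fold change 1.23, adjusted p = 0.0247, limma). Hyou1 stood at 2150 and 1788 against 861 and 1097, just over the threshold at 1.01. Of a list of 41 genes for metal binding, the integrated stress response and immediate early transcription, 5 were listed. All 5 were called higher (beside 94 of all 99 higher genes), with a median of 1.5 that was 0.80 without library 50. Mt1, the metallothionein that buffers zinc and copper, stood at 6128 and 7681 against 1167 and 1322 (log2 fold change 2.46 with standard error 0.39, limma adjusted p = 0.00384). Gdf15, a stress-induced cytokine of the TGF-beta family, stood at 466 and 528 against 36.1 and 133 (log2 fold change 2.82 with standard error 0.60, limma adjusted p = 0.00785). The genotypes were well apart for both, and the control libraries were close for Mt1 but not for Gdf15. The orphan receptor gene Nr4a1 stood at 2393 and 2736 against 550 and 1490, the AP-1 subunit gene Fosl1 at 151 and 163 against 42.0 and 89.7, and Gadd45g at 434 and 571 against 158 and 311. In these 3 genes library 52 lay about midway, and without library 50 their log2 fold changes were 0.78, 0.80 and 0.68 in place of 1.5, 1.34 and 1.17. With equal sums 2 of the 5 genes were called, Mt1 and Gdf15, the median of the 5 was 0.88, and neither Hspa5 nor Hyou1 was called.

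A further 13 regulators of growth-factor signalling and stress, a group chosen after the names in the table had been seen, were all higher. Of these 12 were called, beside 94 of all 99 higher genes. Sgk1, a kinase that promotes sodium transport, stood at 4124 and 4833 normalized counts against 1675 and 2023 (log2 fold change 1.28, adjusted p = 0.0207, limma). The EGF receptor ligand gene Ereg stood at 103 and 115 against 30.4 and 32.5 (log2 fold change 1.76, adjusted p = 0.00849, limma). Its chromosome 5 neighbour Cxcl1, a neutrophil chemokine gene, was counted at 19.3 and 16.7 against 0.966 and 4.28. Feedback inhibitors of the same signalling were among them, with log2 fold changes of 1.46 for Spry4 and 1.07 for Dusp6. The fibronectin receptor subunit Itga5 (1.45), the transcription factor Cebpb (1.32), the TWEAK receptor Tnfrsf12a (1.29) and Phlda1 (1.23) were called higher as well. Phlda1 stood at 523 and 668 against 159 and 398 and was at 0.57 without library 50, and Sik1, at 1.10 and at 0.54 without library 50, was not called (adjusted p = 0.0533, limma). With equal sums Ereg and Cxcl1 were the members of this group that were called.

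The listed enteroendocrine genes were all lower. Of a list of 51 genes 14 were in the table. Limma called all 14 lower, beside 193 of the 210 lower genes of the table. Their median log2 fold change was -1.40, beside -1.50 over all lower genes. The granins Chga and Chgb, package hormones into dense-core granules. Chgb stood at 2557 and 3207 normalized counts against 6466 and 5274 (log2 fold change -1.03 with standard error 0.40, limma adjusted p = 0.0374), and Chga at 1843 and 2363 against 5510 and 4024 (log2 fold change -1.17 with standard error 0.41, limma adjusted p = 0.0292). Among the hormones, Nts, the gene of neurotensin, stood at 123 and 112 against 709 and 297, with a log2 fold change of -1.96 with standard error 0.49 (limma adjusted p = 0.0116). Pyy, the gene of peptide YY, stood at 123 and 114 against 370 and 203 (log2 fold change -1.21, and -0.78 without library 50). Both libraries of Efhd2-deficient IECs agreed closely for these hormones while library 50 was well above library 52. The transcription factors that specify the lineage were low in count. Insm1 stood at 27.4 and 31.6 against 84.3 and 75, Pax6 at 7.09 and 5.53 against 24.5 and 22.8, and Fev, which marks serotonin-producing cells, at 8.12 and 10.2 against 44.2 and 23.0. Lmx1a, a further factor of serotonin-producing cells, had a log2 fold change of -1.29. Vesicle and processing genes followed, with log2 fold changes of -1.10 for the monoamine transporter Slc18a1 and -1.29 for the prohormone carboxypeptidase Cpe. The incretin receptor gene Glp1r, also on the list, had a log2 fold change of -1.72. The others on the list were Resp18 (-1.39), Cpb2 (-1.68) and Peg3 (-1.45). The 3 added genes that the same cells express, chosen after their values had been seen, had log2 fold changes of -2.49 (Iapp), -2.44 (Ppy) and -1.52 (Myt1). In all 17 genes library 50 was above library 52, and without library 50 their median was -1.25 in place of -1.45.

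Genes of the brush border, the microvillus surface on which absorptive cells digest and take up nutrients, were lower as well. Of a list of 62 such genes 7 were listed. All 7 were called lower (beside 193 of all 210 lower genes), with a median of -2.48. The aminopeptidase gene Enpep stood at 52.8 and 161 normalized counts against 645 and 697, a mean 6.27-fold lower and a log2 fold change of -2.85 with standard error 0.55 (limma adjusted p = 0.00586). Anpep, the gene of aminopeptidase N, stood at 39.5 and 29.6 against 172 and 318 (log2 fold change -2.74 with standard error 0.45, limma adjusted p = 0.00391). The water channel gene Aqp8, a colonocyte gene, stood at 2213 and 3293 against 5138 and 6943 (log2 fold change -1.15, adjusted p = 0.0338, limma). For Enpep, Anpep and Aqp8 library 52 was the higher of the 2 control libraries, unlike the enteroendocrine genes. The neutral amino acid transporter Slc6a19 stood at 10.1 and 14.0 against 46.1 and 44.5, the fructose transporter Slc2a5 at 48.7 and 68.8 against 198 and 124, and Apoa1, an apolipoprotein gene, at 8.11 and 6.46 against 35.2 and 57.3. The peptidase gene Mme is a different case, since library 50 held 98.9% of its counts. It stood at 0.00162 and 0.937 against 255 and 1.83, and its log2 fold change of -4.27 became -1.02 without library 50.

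**Figure D4:**
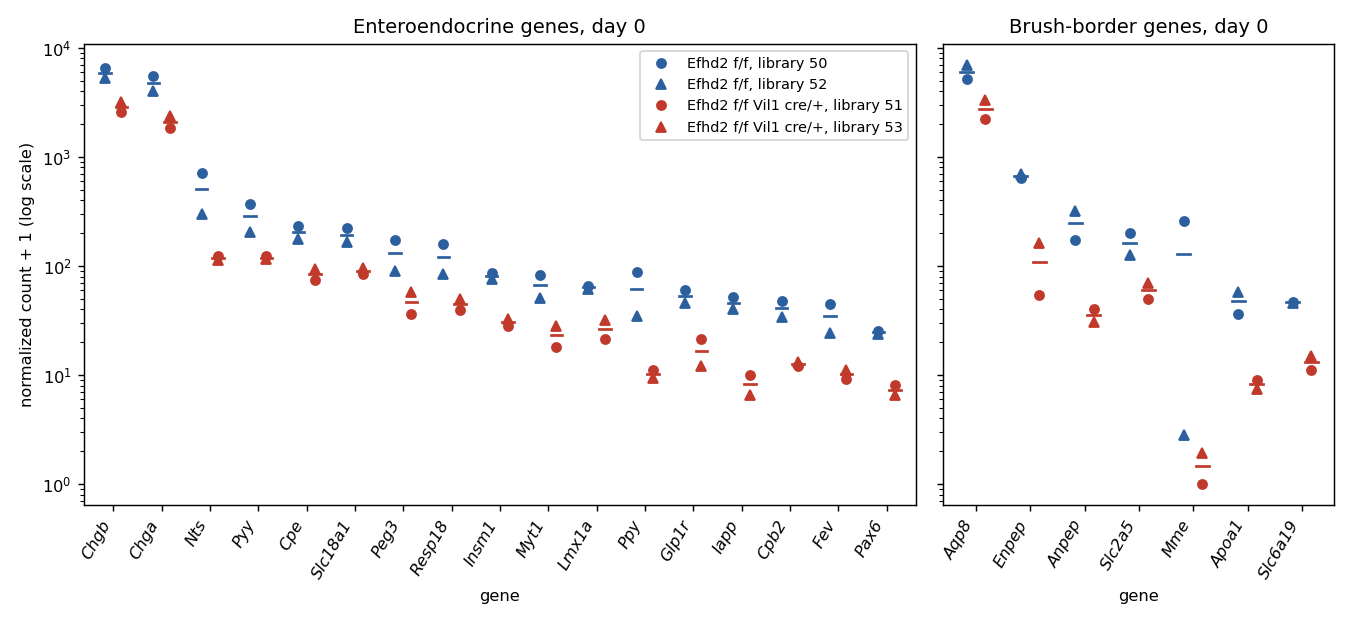
Normalized count plus 1 (y axis, log scale) of 17 enteroendocrine genes (left) and 7 brush-border genes (right) in each day 0 library, with 1 symbol for each library and a short line for the mean of each genotype. Genes are ordered by their mean in control IECs. All 24 genes lie lower in Efhd2-deficient IECs, and for Mme 1 control library lies close to the Efhd2-deficient libraries.

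Sterol transport genes were lower in the same direction. Abcg5 and Abcg8, which together form the transporter that returns plant sterols and cholesterol to the gut lumen, are neighbours on chromosome 17. Abcg5 stood at 21.3 and 23.2 normalized counts against 86.3 and 73.9 (log2 fold change -1.80, adjusted p = 0.00794, limma) and Abcg8 at 13.2 and 20.5 against 69.6 and 60.9 (log2 fold change -1.92). Npc1l1, which takes cholesterol up, stood at 7.10 and 6.48 against 19.6 and 36.7, and Abca1, which exports it to lipoproteins, at 29.4 and 33.4 against 77.4 and 63.1. Cyp27a1, a sterol hydroxylase, had a log2 fold change of -1.0. In the same list of 54 sterol and lipid genes the desaturase gene Scd2 was higher at 6962 and 8290 against 2629 and 4812 (log2 fold change 1.09, and 0.66 without library 50), as was Angptl4 at 89.2 and 130 against 47.1 and 28.4 (1.53). All 7 listed genes were called, 5 lower and 2 higher. Nr0b2, the gene of the small heterodimer partner that represses bile acid synthesis, stood at 63.9 and 110 against 9.80 and 9.78 (log2 fold change 2.97 with standard error 0.43, limma adjusted p = 0.00266).

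Other genes of surface epithelium, chosen after the names in the table had been seen, went both ways. Slc13a2, a dicarboxylate cotransporter, stood at 2701 and 4199 normalized counts against 9065 and 6937 (log2 fold change -1.24, adjusted p = 0.0283, limma), and its antisense transcript Slc13a2os, whose reads cannot be told apart from it without knowing whether strand was used, had a log2 fold change of -1.13. The hydrogen peroxide-producing oxidase Duox2 stood at 2902 and 3193 against 6537 and 7655 (log2 fold change -1.22, adjusted p = 0.0230, limma). The inducible nitric oxide synthase gene Nos2 stood at 38.5 and 46.4 against 145 and 220 (log2 fold change -2.05, adjusted p = 0.00690, limma), and complement C3 at 62.9 and 138 against 205 and 409, with a log2 fold change of -1.62 that was -1.07 without library 51. The organic cation transporters Slc22a3 and Slc22a4 and the urea transporter Slc14a1 were called lower at -1.22, -1.54 and -2.32. By contrast the water channel gene Aqp4 stood at 8572 and 8925 against 3684 and 4935 (log2 fold change 1.04, adjusted p = 0.0362, limma), opposite to Aqp8, and the inositol transporter Slc5a3 was called higher at 1.04. The pentraxin gene Mptx2 stood at 4653 and 1117 against 711 and 870, and its log2 fold change of 1.53 was 0.50 without library 51. The Cyp2d cytochromes, a family of drug-metabolizing enzymes clustered on chromosome 15, had 5 listed genes, each called lower. Cyp2d34 stood at 2679 and 2642 against 8950 and 5621 (log2 fold change -1.41, adjusted p = 0.0185, limma), and Cyp2d9, Cyp2d10, Cyp2d12 and Cyp2d26 had log2 fold changes from -1.78 to -1.09. Reads of these similar paralogs could have been assigned to each other.

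Products of Paneth and other secretory cells were few. Of 44 genes in this list 3 were listed, Saa3, Lyz1 and Defa24. Saa3, an acute-phase serum amyloid gene, stood at 167 and 92.4 normalized counts against 347 and 340 (log2 fold change -1.46, adjusted p = 0.0195, limma). The lysozyme gene Lyz1 stood at 6.07 and 2.73 against 12.6 and 54.8, and its log2 fold change of -2.43 was -1.41 without library 52. The defensin gene Defa24 was listed at 0 in libraries 51, 53 and 50 and at 86.9 in library 52, so the genotypes overlapped and it was not called (adjusted p = 0.0845, limma).

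Genes of leukocytes were the largest of the lower groups described here. Over the lists of T and NK cell, receptor, B cell, immunoglobulin, macrophage and dendritic cell genes, together with 32 others added after the names had been seen, 54 genes were listed, of which 52 were lower and 2 higher, and 45 and 2 were called. Of all listed genes 193 of 210 lower and 94 of 99 higher ones were called. Their summed normalized counts were 5483 and 5950 in Efhd2-deficient IECs and 15808 and 9863 in control IECs. Library 50 was thus the highest and library 52 lay between it and the other 2, and library 50 was above library 52 in 51 of the 54 genes. Without library 50 the median log2 fold change of the 54 genes was -0.95 in place of -1.21, and 26 of the 54 stayed beyond 1 in size. Whether this difference took part in the other lower groups was not tested.

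The listed markers of T and NK cells and their receptors were all lower. Of the 43 marker genes 8 were listed, and 6 were called, with a median of -1.12 that was -0.67 without library 50. Cd7, a marker of T and NK cells, stood at 477 and 597 normalized counts against 1384 and 841, a log2 fold change of -1.01 (adjusted p = 0.0476, limma) that was -0.65 without library 50. Trac, the constant segment of the T cell receptor alpha chain, stood at 112 and 132 against 263 and 281 (log2 fold change -1.16, adjusted p = 0.0260, limma), and here the control libraries were close together. The chemokine gene Xcl1 stood at 77.1 and 114 against 383 and 214 (-1.60), the cytotoxic granule gene Nkg7 at 189 and 208 against 544 and 317 (-1.07, and -0.68 without library 50), and Cd244a was called lower at -1.08. Cd3d, part of the T cell receptor complex, stood at 142 and 141 against 390 and 208, and Cd160, found on intraepithelial lymphocytes, at 121 and 174 against 520 and 212, and neither was called (adjusted p = 0.0533 and 0.0502, limma, with log2 fold changes of -0.55 for both without library 50). The gamma-delta receptor, typical of intraepithelial lymphocytes, had 6 listed genes besides the delta constant gene Trdc, all called lower with a median of -1.25. Tcrg-C2 stood at 245 and 324 against 766 and 495 (-1.13), Tcrg-C4 at 131 and 182 against 421 and 241 (-1.04, and -0.64 without library 50) and Trgv2 at 83.1 and 79.7 against 272 and 165 (-1.37). Trdc, counted here among the T and NK cell markers and also called lower, stood at 80.1 and 84.4 against 286 and 130, with -1.22 and, without library 50, -0.65. Trdv5 was listed at 0 in libraries 51 and 53 and at 18.7 and 4.55 in control IECs, and Trbv12-1 of the beta chain stood at 0.0106 and 6.61 against 27.5 and 14.3.

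B cell, myeloid and general leukocyte genes were counted at mostly low levels. Ighd stood at 11.1 and 9.24 normalized counts against 78.5 and 51.3 (log2 fold change -2.53, adjusted p = 0.00391, limma), Ighg2b at 4.07 and 8.41 against 62.8 and 21, and the B cell coactivator Pou2af1 at 11.1 and 9.24 against 44.1 and 28.4. Igkv8-24 was the exception among immunoglobulin genes at 19.2 and 4.45 against 0.983 and 0.0102, with library 51 holding 77.9% of its counts. The Fc receptor gamma chain gene Fcer1g stood at 28.4 and 61.5 against 191 and 149 (log2 fold change -1.98, adjusted p = 0.0108, limma), the integrin gene Itgax, common on dendritic cells and some intraepithelial T cells, at 121 and 94.4 against 270 and 188 (-1.07), and the actin regulator Coro1a, expressed across leukocytes, at 625 and 646 against 1842 and 1084 (-1.15, adjusted p = 0.0339, limma). The inhibitory receptor gene Btla was called lower at -2.0. The NK receptor gene Klra5 had a log2 fold change of -1.82, and Klrc3 one of -3.32 that was -1.91 without library 53. Ctla4, an inhibitory receptor of regulatory T cells, went the other way at 200 and 198 against 59.7 and 120 (log2 fold change 1.22, adjusted p = 0.0343, limma, and 0.72 without library 50). No gene of the neutrophil list of 18 was in the table.

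Markers of other cell types were scarce. Of 26 stromal, endothelial, muscle and glial genes 2 were listed, both called lower. The proteoglycan gene Dcn of fibroblasts stood at 20.3 and 62.5 normalized counts against 112 and 131 (log2 fold change -1.73, and -0.94 without library 51), and Pecam1 of endothelial cells at 48.7 and 47.3 against 140 and 80.7 (-1.13, and -0.74 without library 50). Alas2, the heme synthesis enzyme of red cell precursors, was the one listed gene of 9 red blood cell genes, at 44.6 and 68.8 against 25.5 and 14.3 (log2 fold change 1.49). Of the 12 general markers of colonic epithelium, such as Epcam and Krt20, 0 were listed, so the labelled cell type could not be checked with them, while the colonocyte gene Aqp8 and the enteroendocrine gene Chga were counted at 1843 or more in all 4 libraries. The table also held 0 of 19 goblet and tuft cell genes, 0 of 34 interferon response genes, 0 of 28 genes of TNF receptor signalling and cell death, 0 of 18 cofilin and actin regulators, 0 of 17 circadian genes and 0 of 9 sex-linked genes. These zeros hold for the chosen lists only, and related genes outside them were in the table. Examples are the actin regulator Coro1a (log2 fold change -1.15), the caspase gene Casp14 (3.55) and the interferon regulatory factor gene Irf5 (-1.40). Genes that are not listed may have differed without passing the authors' thresholds, and their values were not analysed here.

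The listed regulators of position along the gut were higher. Hoxa13 and Hoxb13 are the most posterior HOX genes of their clusters and mark the distal colon, and they were the 2 listed genes of 31 positional genes. Hoxb13 stood at 538 and 497 normalized counts against 134 and 243 (log2 fold change 1.51 with standard error 0.44, limma adjusted p = 0.0176), and Hoxa13 at 385 and 358 against 150 and 201 (log2 fold change 1.09 with standard error 0.39, limma adjusted p = 0.0324). In both, library 52 was the control library nearer to the Efhd2-deficient libraries. The neighbours of Hoxa13 on chromosome 6, the noncoding RNA Hottip and the homeobox gene Evx1, were called higher too, Hottip at 88.2 and 107 against 50 and 42.4 (1.06) and Evx1 at 50.7 and 54.7 against 14.7 and 23.7 (1.45). The transcription factor genes Prdm16 (1.44), Foxa2 (1.14) and Tcf7l1 (1.11) were called as well, and Foxa2 was at 0.64 without library 51. These genes, like Hottip and Evx1, were added after the names had been seen. With libraries scaled to equal sums, all 7 stayed above 0 but none was called.

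Several of the largest differences belonged to genes with many copies or of uncertain counting. Rpl34, a ribosomal protein gene with many processed pseudogenes, stood at 96.3 and 66.6 normalized counts against 2704 and 1327, a mean 24.8-fold lower and a log2 fold change of -4.55 with standard error 0.48 (limma adjusted p = 0.00199). Other ribosomal entries were 2 pseudogenes, Rps26-ps1 at 20.3 and 18.5 against 77.4 and 97.6 and Rpl15-ps3 at 286 and 48.4 against 23.5 and 37.8, whose log2 fold change of 1.95 was 0.68 without library 51. Rn7sk, the noncoding RNA that holds the elongation factor P-TEFb inactive and that also has many genomic copies, stood at 83.1 and 83.5 against 412 and 746 (log2 fold change -2.72 with standard error 0.43, limma adjusted p = 0.00384). The mitochondrial genes mt-Co2 and mt-Co3 encode subunits of cytochrome c oxidase and were the listed ones of 37 mitochondrially encoded genes. For mt-Co2 library 51 stood apart at 44079 normalized counts, with 8862 in library 53 and 6197 and 8459 in the control libraries, and mt-Co2 was not called (log2 fold change 1.45, adjusted p = 0.0714, limma, and 0.29 without library 51). The values of mt-Co3 were 18825 and 11651 against 3134 and 4797 (log2 fold change 1.93, adjusted p = 0.00987, limma). Together these 2 genes made up 24.5% and 10% of the sum over listed genes in Efhd2-deficient IECs and 6.2% and 8.87% in control IECs.

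In 11 listed genes a single library held over 75% of the counts, and in 8 of them it was library 50. Besides Mme these were Hist1h2al (at 0 and 0 against 101 and 1.64), Atp6v0c-ps2 (at 6.07 and 1.79 against 297 and 2.96), Gm15446, Gm2260, Gm13453, Ighv8-12 and Trdv5. Hist1h2al is annotated as a pseudogene, was the one listed gene of 80 stem and cycling cell genes, and had a log2 fold change of -4.04 that was -1.40 without library 50, and Atp6v0c-ps2, not called, moved from -2.95 to 0.16. The genotypes overlapped for 3 genes, Atp6v0c-ps2, Gm15446 and Defa24. Of 21 listed pseudogenes, 14 were lower and 7 higher, and 11 and 7 were called. The pseudogene Gm3608 was called higher at 600 and 652 against 120 and 159 (log2 fold change 2.17, adjusted p = 0.00528, limma). The Efhd2-deficient libraries both listed 6 genes at 0, and the control libraries both listed 3 at 0, among them Casp14, at 5.11 and 21.6 in Efhd2-deficient IECs.

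The remaining genes with the largest changes or the highest counts came from other pathways. B3gnt7, a glycosyltransferase gene, stood at 1034 and 1026 normalized counts against 253 and 178 (log2 fold change 2.27 with standard error 0.40, limma adjusted p = 0.00457), with each pair of libraries close together. Mat2a, which makes the methyl donor S-adenosylmethionine, stood at 9843 and 9741 against 3660 and 5705 (log2 fold change 1.10, adjusted p = 0.0350, limma). Ankrd37, a hypoxia-inducible gene, stood at 56.8 and 132 against 503 and 231 (log2 fold change -1.96, adjusted p = 0.0176, limma). The kinase gene Cdkl1 stood at 26.4 and 86.8 against 306 and 105, and its log2 fold change of -1.88 was -1.04 without library 51 and -1.11 without library 50. Lama3, a chain of the basement membrane laminin, stood at 567 and 738 against 1956 and 1338 (log2 fold change -1.32, adjusted p = 0.0224, limma). The imprinted noncoding RNAs Meg3 and Rian, neighbours on chromosome 12, were called higher at 175 and 200 against 65.7 and 56.5 (1.61) and 84.2 and 99.3 against 35.3 and 19.7 (1.75).

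Some listed genes lay near each other in the genome. Genes were joined into a group when the gap to the next listed gene was at most 200000 bases. By this rule 77 of the 309 genes fell into 31 groups. Of these 19 were lower throughout, 8 were higher throughout and 4 were mixed. The share expected for genes in general was not computed. The 2 largest held 5 lower genes each, the Cyp2d genes on chromosome 15 and the T cell receptor gamma genes on chromosome 13. Pyy and Ppy on chromosome 11, Abcg5 and Abcg8 on chromosome 17 and the integrin genes Itgax and Itgad on chromosome 7 were other lower neighbours. The higher ones included Hspa1a and Hspa1b on chromosome 17, Hoxa13, Hottip and Evx1 on chromosome 6, Cxcl1 and Ereg on chromosome 5, and Mir23a with the noncoding genes Gm37352 and Gm26532 on chromosome 8. Mir23a, counted at 26.3 and 20.3 against 0 and 4.25 (log2 fold change 3.40, and 2.2 without library 50), reports reads over the miRNA gene and not the mature miRNA. In 7 pairs the listed genes overlapped, among them Abcg5 with Abcg8, Cd244a with Ly9 and Trdc with Trdv5, and reads in such overlaps could count for either gene.

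Few of the day 0 genes were listed again after DSS. On day 7 the authors' table held 128 genes, and 9 genes were in both tables, which is 2.91% of the day 0 genes and 7.03% of those of day 7. The days were scaled separately and use different libraries (on day 7, Efhd2-deficient libraries 65 and 71 and control libraries 67 and 68), so only the genotypes within a day are compared. Alas2 was higher on both days and Defa24 lower on both. The other 7, Nr0b2, Nos2, Fcer1g, Saa3, Spp1, Abca1 and 9130204K15Rik, had opposite signs on the 2 days. Nos2, at 38.5 and 46.4 normalized counts against 145 and 220 on day 0, stood at 6100 and 1724 against 80.1 and 271 on day 7. Nr0b2 turned the other way, from 63.9 and 110 against 9.80 and 9.78 on day 0 to 1.02 and 2.05 against 18.8 and 49.7 on day 7. In each of the 7 genes the genotypes did not overlap on either day. On day 0 the same held for 99 higher and 207 lower genes of all 309, so it does not set these 7 apart. The share on day 7 was not computed.

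**Figure D5:**
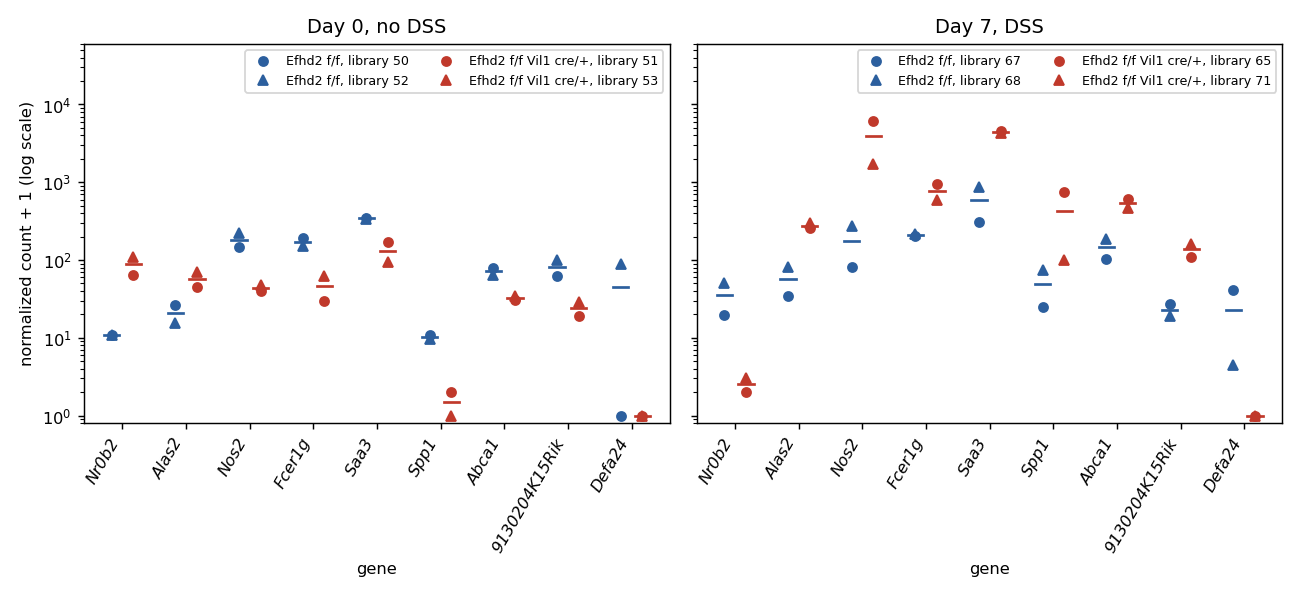
Normalized count plus 1 (y axis, log scale) of the 9 genes in both tables, on day 0 without DSS (left) and on day 7 after DSS (right), with 1 symbol for each library and a short line for the mean of each genotype. The days were scaled separately. Nr0b2 lies higher in Efhd2-deficient IECs on day 0 and lower on day 7, and Nos2, Fcer1g, Saa3, Spp1, Abca1 and 9130204K15Rik the reverse.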

How the data were processed

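RNA of colonic IECs was made into NEBNext Ultra libraries and sequenced by the authors on an Illumina NovaSeq instrument, in 2 libraries of each genotype on day 0. The submitters' processing notes name CASAVA 1.8, fastp, HISAT2 2.0.5, featureCounts 1.5.0-p3 and DESeq2 1.20.0, and GRCm38, with no role or order. The deposited signal is a normalized count per gene and library, scaled by the authors with a method not given in the sources used here, and whole reads could not be recovered for every library (low values lay within 0.1 of a multiple of a fixed step in 100% and 95.8% of cases in libraries 51 and 50, but in 78.9% and 58.8% in libraries 53 and 52), so the depth is unknown and no counting interval was computed. Deposited genotype means, log2 fold changes, p-values and adjusted p-values are the authors' own comparison and were not used. Values under 1e-06, stored in place of 0, were set to 0 (25 on day 0 and 14 on day 7).

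The table of day 0 holds genes past the authors' thresholds only. Its values were taken to log2(normalized count + 1), a pseudocount of 1, where the Efhd2-deficient libraries were compared with the controls by limma 3.58.1 (lmFit and eBayes) in R 4.3.3, with Benjamini-Hochberg adjustment over all 309 genes. Fold changes on this scale understate those of low genes. Limma's shared variance came from genes selected for a difference. Columns were tied to a genotype and a day by their names. Genes were placed with GENCODE M21, in which all 309 were found, 294 with identical coordinates, and promoters came from RefSeq (GRCm38.p6).

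The members and gene lists were chosen with earlier results of these data known. Named genes were Efhd2, in each direction the 10 called genes that changed most (mean of 100 or more) and the 10 with the highest mean, up to 8 genes of each list, genes of both tables and up to 4 at 0 in a genotype. Other genes named were chosen after their values were seen. Alternatives were pseudocounts of 0.1 and 10, equal sums, a mean of at least 50, a variance trend, a threshold of 2 and each library left out.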

Additional observations from a re-analysis of the deposited data

Results flagged for a closer look

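For 7 genes in the tables of both days, the sign of the log2 fold change (Efhd2-deficient over control IECs) was opposite on the 2 days and the genotypes did not overlap on either. Such separation was near universal on day 0, where it held for 99 higher and 207 lower genes of 309, and its share on day 7 was not computed. The difference between the days was not tested, since the tables were scaled separately, and the direction on each day was fixed by the authors' selection. Nr0b2 was at 2.97 on day 0 and -3.67 on day 7. Nos2 was at -2.05 on day 0 and 4.45 on day 7. Fcer1g was at -1.98 and 1.85, Saa3 at -1.46 and 3.08, and Abca1 at -1.13 and 1.93. Spp1, counted at 1.01 and 0 against 9.80 and 8.71 normalized counts on day 0, was at -2.85 and 2.67. The long noncoding RNA 9130204K15Rik was at -1.74 and 2.57.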

How the results depend on the processing

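Pseudocounts of 0.1 and 10 called 86 and 91 genes higher and 182 and 177 lower, and a variance trend 98 and 200, against 94 and 193. Equal sums over the listed genes, which lower fold changes by construction, gave 30 higher calls, all among the 94. They gave 207 lower calls, which include the 193. With the 207 genes that had a mean of at least 50, 77 were called higher and 120 lower, of which 73 and 114 were called with all genes, and the lower number of genes tested lowers these counts. A threshold of 2 left 22 higher and 50 lower. With each library left out the counts ranged from 0 to 78 higher and from 0 to 159 lower, and only the fit without library 52 gave calls. A genotype left with 1 library is assumed to vary like the other. Atp6v0c-ps2 changed sign to 0.16 without library 50 (range with each library left out, -6.07 to 0.16), and the other named genes kept their sign in every setting, except Defa24, which had no difference without library 52. No paired analysis was possible because the columns carry library numbers that no label ties to a replicate. Depth, and with it the precision of low values, is unknown.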
